A study of Mus musculus with 4 samples.

Results

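The genes described here are 10 genes of innate immune sensing and inflammatory signalling: the Toll-like receptors *Tlr2*, *Tlr3* and *Tlr4*, their adaptor *Myd88*, the NF-κB subunit *Nfkb1*, the NF-κB inhibitors *Nfkbia* and *Tnfaip3*, the adhesion molecules *Icam1* and *Vcam1*, and the prostaglandin synthase *Ptgs2*. They were chosen by gene symbol and not by a rule on their values, but with earlier results of these data known. All 10 were found among the 48587 genes of the count table. The RNA came from primary vascular smooth muscle cells (VSMCs) grown from the descending aorta of C57BL/6J mice aged 8 to 12 weeks and used at passage 5 to 7 in medium with 15% serum. Every culture was exposed to lentivirus for 24 hours and collected 48 hours after fresh medium. In 2 libraries the virus carried a hairpin against *Mettl14*, which encodes a subunit of the RNA m6A methyltransferase (shMettl14), and in the other 2 a control hairpin directed at a plant microRNA sequence (shCTR). Each group was labelled A and B. A single hairpin stood for each group, so an effect of that hairpin sequence and an effect of *Mettl14* cannot be told apart. No source states whether the letters mark separate cultures or animals, so the p-values measure only the spread between these libraries, which may be technical.

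Toll-like receptors recognise microbial and damage-associated molecules. TLR2 and TLR4 sit at the cell surface and can signal through the adaptor MyD88. TLR3 binds double-stranded RNA in endosomes and uses the adaptor TRIF. Both routes reach the IκB kinase, which marks IκB proteins for destruction and lets NF-κB dimers enter the nucleus. NF-κB then drives genes for adhesion molecules, chemokines and cyclooxygenase 2, together with its own inhibitors, which close the loop. In the arterial wall the same pathway is known for the display of ICAM-1 and VCAM-1 on endothelial cells and on activated VSMCs, where they hold leukocytes.

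The libraries held between 114343653 and 124815868 counts. *Mettl14* had 2050 and 2154 counts in the shCTR libraries and 546 and 568 in the shMettl14 libraries, so the targeted gene followed the labels. Of the VSMC markers, *Acta2* stood at 3547 and 2799 CPM (counts scaled to library size) in shCTR A and B and at 2171 and 2073 in shMettl14 A and B. The summed level of 7 VSMC markers was 8599 and 8758 CPM in shCTR and 6401 and 7700 CPM in shMettl14, and 5053, 5960, 4230 and 5627 CPM without *Acta2* in shCTR A, shCTR B, shMettl14 A and shMettl14 B. Of the 7, 5 were lower under shMettl14 within both letters, while *Cald1* was higher in A and *Lmod1* higher in B, markers named after their values were seen. The isolation, per the study's methods, removed the adventitia with enzymes and scraped off the endothelium before the cells grew out. Endothelial markers were nevertheless present: 8 of them summed to 2041, 4031, 1891 and 2528 CPM in shCTR A, shCTR B, shMettl14 A and shMettl14 B, and *Pecam1* and *Cdh5* were among them in every library. From A to B, 6 of the 8 were higher under both hairpins, and *Egfl7* and *Tie1*, also named after their values were seen, were lower under both. *Emcn* carried much of the sum, which without it was 1392, 1932, 1408 and 1451 CPM in the same order. The sum of 10 leukocyte markers lay between 10.98 and 14.9 CPM, with 7 of the 10 under 1 CPM in every library. In bulk RNA, fewer cells of a type and less RNA per cell cannot be told apart.

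By the edgeR test given below, no member differed between shMettl14 and shCTR beyond the spread between libraries. *Mettl14* itself, with a log2 fold change of −2.08, did not pass that test either. A member that did not pass is therefore not shown to be unchanged. *Ptgs2* had the largest estimated difference, at 56.2% of its shCTR level, and was lower under shMettl14 within both letters. *Tlr4* and *Tnfaip3* were higher within both letters, *Nfkbia*, *Icam1* and *Myd88* were lower within both, and *Tlr2*, *Tlr3*, *Nfkb1* and *Vcam1* went opposite ways in A and B. All 10 members passed the filter on low counts. By edgeR's quasi-likelihood test 0 of 10 members had an adjusted p under 0.05, beside 0% of the 18916 genes tested, and each member's adjusted p was 1 after rounding. At an unadjusted p under 0.05 the count was 0 of 10 members, beside 1.67% of all genes, and by DESeq2 0 of 10 members were called, beside 0.0172% of all genes. The 2 members higher within both letters compare with 30.0% of all genes, and the 4 members lower within both compare with 27.7%. The shCTR and shMettl14 values overlapped for 10 of 10 members, whereas in all genes the groups stood apart, with shMettl14 higher, in 14.7% and, with shMettl14 lower, in 13.3%. With 2 libraries on each side, 0.333 is the smallest two-sided p that exact permutation allows. The median log2 fold change was −0.05 over the members and 0.01 over all genes, and that of the members was 0.05 without shCTR A, −0.18 without shCTR B, −0.19 without shMettl14 A and 0.04 without shMettl14 B.

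**Figure D1:**
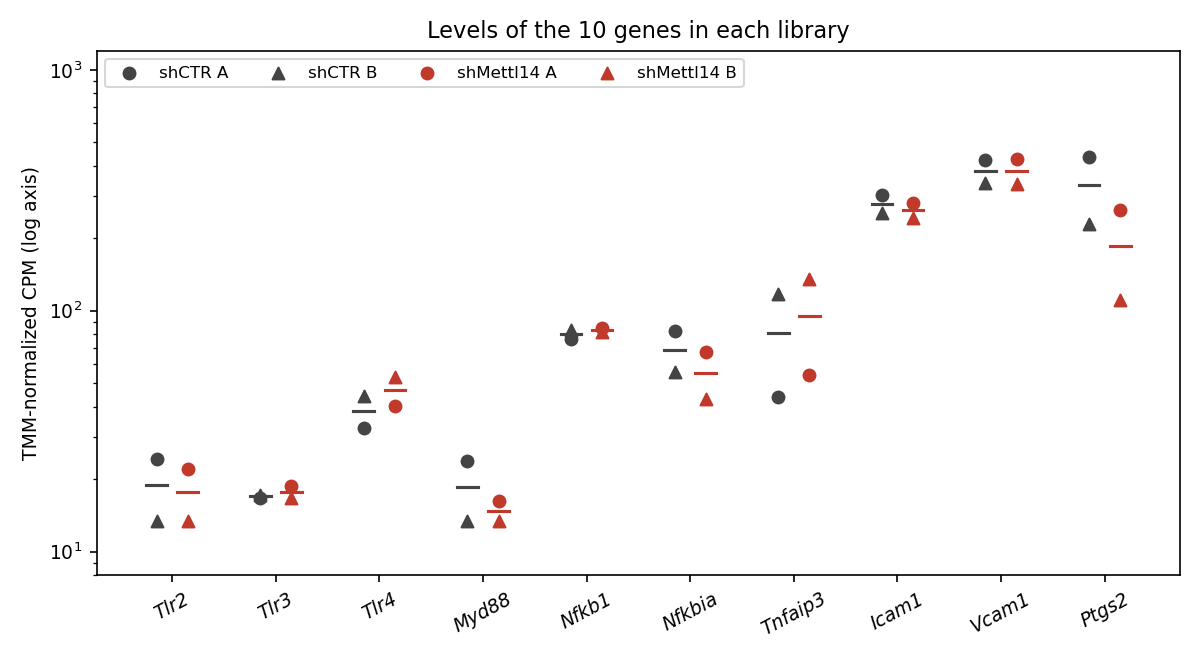
Level of each member gene in CPM (log axis) in each of the 4 libraries, with 1 point for each library and the colours and shapes marking hairpin and letter and a short bar at the mean of each group. The shCTR and shMettl14 points overlap for all 10 genes, and *Ptgs2* runs from 110 CPM in shMettl14 B to 435 CPM in shCTR A.

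To compare levels between genes, counts were divided by the length of all annotated exons of a gene, merged over its transcripts, to give TPM. That length was 12061 bases for *Nfkb1*, 8870 for *Vcam1* and 4360 for *Icam1*, and the order between genes depends on it. TPM and CPM scale the libraries differently, so the hairpins are compared in CPM only. In TPM, *Icam1* was higher under shMettl14 within both letters (235 to 237 in A, 208 to 224 in B), but lower within both in CPM. *Tlr3*, *Nfkb1* and *Vcam1*, mixed in CPM, were higher within both letters in TPM, and *Myd88*, lower within both in CPM, was mixed in TPM. The mean level over the 4 libraries ran from 226 TPM for *Icam1* down through *Ptgs2* (202 TPM), *Vcam1* (157 TPM), *Nfkbia* (140 TPM), *Tnfaip3* (45.4 TPM), *Tlr4* (28.4 TPM), *Nfkb1* (24.9 TPM), *Myd88* (23.5 TPM) and *Tlr2* (22.0 TPM) to *Tlr3* at 12.2 TPM. By these means the effector and inhibitor genes stood above the receptors and the adaptor. In shCTR A, however, *Tnfaip3* at 20.6 TPM lay below *Nfkb1* (21.6 TPM), *Tlr2* (27.4 TPM) and *Myd88* (31.3 TPM). Neighbours in this order had overlapping ranges over the 4 libraries, except that *Nfkbia* lay above *Tnfaip3* and *Tlr2* above *Tlr3* in every library with no overlap. Among genes with any count, *Tlr3* was at percentile 71.3 and *Icam1* at percentile 97.6. Every member had between 1441 and 50503 counts in each library, so counting error alone was at most 2.63% of a value.

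Among the receptors, *Tlr2* (ENSMUSG00000027995, GRCm38 chromosome 3, 83836272 to 83841767, minus strand) encodes the surface receptor for bacterial lipopeptides. It was read at 24.3 CPM in shCTR A, 13.3 in shCTR B, 22.0 in shMettl14 A and 13.4 in shMettl14 B. Both A libraries were high and both B libraries low, whichever hairpin they carried. The log2 fold change of shMettl14 over shCTR was −0.09 (SE 0.41, 95% interval −1.15 to 0.97), made up of a log2 ratio of −0.15 in A and 0.0048 in B. From A to B the log2 level changed by −0.87 under shCTR and −0.71 under shMettl14.

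*Tlr3* (ENSMUSG00000031639, chromosome 8, 45395665 to 45411080, minus strand), the endosomal receptor for double-stranded RNA, was read at 16.7 and 17.1 CPM in shCTR A and B and at 18.7 and 16.7 CPM in shMettl14 A and B. The 4 libraries lay close together and the groups overlapped. Its log2 fold change was 0.07 (SE 0.22, 95% interval −0.50 to 0.63). Exons on the other strand cover 7.32% of its exon length, and reads from them cannot be told apart here because, although the libraries were strand-specific, the strand setting of the counting is not given in the sources used here.

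*Tlr4* (ENSMUSG00000039005, chromosome 4, 66827584 to 66930284, plus strand) encodes the receptor for lipopolysaccharide. Its level was 32.5 CPM in shCTR A and 44.4 in shCTR B, against 40.1 in shMettl14 A and 53.2 in shMettl14 B. Within each letter shMettl14 was the higher library, but shMettl14 A lay below shCTR B, so the groups overlapped. The log2 ratio was 0.30 in A and 0.26 in B, and the log2 fold change was 0.28 (SE 0.27, 95% interval −0.41 to 0.97). The step from A to B was larger than the hairpin difference, at 0.45 under shCTR and 0.41 under shMettl14 on the log2 scale. TLR4 needs the co-receptors MD-2, encoded by *Ly96*, and CD14. *Ly96* was read at 6.09, 8.33, 6.64 and 5.96 CPM and *Cd14* at 3.01, 1.35, 2.31 and 1.55 CPM in shCTR A, shCTR B, shMettl14 A and shMettl14 B. Both co-receptors were thus detected in every library, and for both the groups overlapped.

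*Myd88* (ENSMUSG00000032508, chromosome 9, 119335934 to 119341411, minus strand), the adaptor that links TLR2, TLR4 and the interleukin-1 receptors to the IRAK kinases, was read at 23.8, 13.4, 16.2 and 13.4 CPM in shCTR A, shCTR B, shMettl14 A and shMettl14 B. The library that stood out was shCTR A, and the other 3 lay between 13.4 and 16.2 CPM. Its log2 ratio was −0.56 in A and −0.0054 in B, giving a log2 fold change of −0.33 (SE 0.35, 95% interval −1.23 to 0.56). The difference rested on shCTR A, since without that library the log2 fold change was 0.14. Exons of the opposite strand cover 11.3% of the exon length of *Myd88*.

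**Figure D2:**
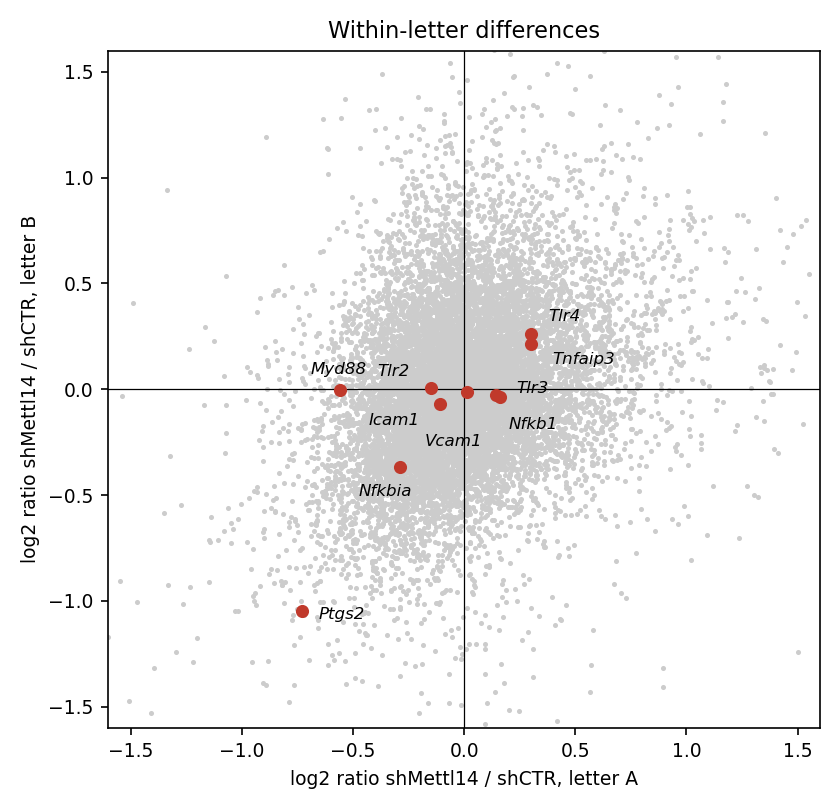
Log2 ratio of shMettl14 over shCTR in letter A (horizontal axis) against letter B (vertical axis), for the 10 members (named points) and, in grey, all genes with a mean of at least 1 CPM. Of those 13019 genes, 134 lie outside the axes, which end at 1.6 on either side. *Ptgs2* is the member farthest from the origin, at −0.73 in A and −1.05 in B.

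Among the NF-κB genes, *Nfkb1* (ENSMUSG00000028163, chromosome 3, 135584655 to 135691547, minus strand) encodes p105, the precursor of the p50 subunit. It had the values 76.7 and 83.4 CPM in shCTR A and B and 84.7 and 81.9 CPM in shMettl14 A and B. These libraries differed little in either direction. The log2 fold change was 0.06 (SE 0.19, 95% interval −0.42 to 0.53), and the interval leaves out a difference of more than 0.53 on the log2 scale.

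*Nfkbia* (ENSMUSG00000021025, chromosome 12, 55489410 to 55492647, minus strand) encodes IκBα, which holds NF-κB in the cytoplasm and is itself transcribed by NF-κB. Its level was 82.2 CPM in shCTR A, 55.4 in shCTR B, 67.4 in shMettl14 A and 43.0 in shMettl14 B. Each shMettl14 library was below the shCTR library of its letter, yet shMettl14 A was above shCTR B. The log2 ratio was −0.29 in A and −0.37 in B, and the log2 fold change was −0.32 (SE 0.33, 95% interval −1.16 to 0.53). Without shCTR A the log2 fold change was −0.0013. The B libraries were lower than the A libraries by more than this, with log2 steps of −0.57 under shCTR and −0.65 under shMettl14.

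*Tnfaip3* (ENSMUSG00000019850, chromosome 10, 19000910 to 19015657, minus strand) encodes A20, a ubiquitin-editing enzyme that shuts down NF-κB signalling from TLRs and the TNF receptor. It was read at 43.8 CPM in shCTR A, 117 in shCTR B, 54.0 in shMettl14 A and 136 in shMettl14 B. Both B libraries were far above both A libraries, with log2 steps of 1.42 under shCTR and 1.33 under shMettl14, the largest letter difference of the 10 members. Within letters the log2 ratio was 0.30 in A and 0.22 in B. The log2 fold change of 0.24 carried an SE of 0.63 and a 95% interval of −1.39 to 1.87. Of the 8 endothelial markers, 6 were also higher in B under both hairpins and 2 were lower in B, and their part in the letter difference of *Tnfaip3* was not tested.

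The promoters of these genes were read because NF-κB drives several of the members. RefSeq windows on GRCm38.p6, running from 250 bases before to 50 after the transcript start, matched 7 of the 10 members, and *Nfkb1*, *Tlr4* and *Vcam1* had no entry. Each window was searched on both strands for the 10-base κB consensus, and 4 members held a match: *Tlr2*, *Tlr3*, *Nfkbia* and *Tnfaip3*. The same consensus occurred in 8.46% of all 32851 windows. The matched stretches are printed in lower case, 5′ to 3′ on the strand of the gene, with the bases that match the consensus on either strand in capitals, because they are the receptor and inhibitor promoters that carry the motif. In *Tlr2* the capitals of the first stretch cover a pair of overlapping matches.
Tlr2, chr3:83841746-83841806, minus strand: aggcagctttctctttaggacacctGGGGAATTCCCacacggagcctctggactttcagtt
Tlr2, chr3:83841582-83841641, minus strand: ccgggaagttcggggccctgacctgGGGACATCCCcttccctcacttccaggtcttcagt
Tlr3, chr8:45410557-45410616, minus strand: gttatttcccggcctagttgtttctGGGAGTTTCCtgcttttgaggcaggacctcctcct
Nfkbia, chr12:55492642-55492701, minus strand: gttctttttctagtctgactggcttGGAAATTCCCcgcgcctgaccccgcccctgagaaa
Tnfaip3, chr10:19015501-19015560, minus strand: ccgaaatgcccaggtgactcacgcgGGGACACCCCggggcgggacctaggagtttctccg
Tnfaip3, chr10:19015388-19015447, minus strand: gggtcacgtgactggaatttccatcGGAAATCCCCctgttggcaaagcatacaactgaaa

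The second match of *Tlr2* began 8 bases upstream of the start site and crossed it, the nearer match of *Tnfaip3* began 12 bases upstream, and that of *Nfkbia* 29 bases upstream. These 4 genes did not share a direction: *Nfkbia* was lower and *Tnfaip3* higher under shMettl14 within both letters, while *Tlr2* and *Tlr3* had opposite signs in A and B. The windows of *Myd88*, *Icam1* and *Ptgs2* held no match, which says only that these letters are not in those 300 bases. A match is a description of the sequence and no evidence of binding.

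Of the effector genes, *Icam1* (ENSMUSG00000037405, chromosome 9, 21015985 to 21028817, plus strand) encodes the ligand for leukocyte β2 integrins. It was read at 301 CPM in shCTR A, 254 in shCTR B, 279 in shMettl14 A and 242 in shMettl14 B. The A libraries were again above the B libraries. The log2 ratio was −0.11 in A and −0.07 in B, with a log2 fold change of −0.09 (SE 0.21, 95% interval −0.62 to 0.44). With library totals alone the value for *Icam1* was 0.02, where the median of all genes is 0.12, so *Icam1* lay below that median under both scalings. Exons of the opposite strand cover 11.7% of the exon length of *Icam1*.

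*Vcam1* (ENSMUSG00000027962, chromosome 3, 116109949 to 116129688, minus strand) encodes the ligand for the leukocyte integrin α4β1. Its level was 422 and 339 CPM in shCTR A and B and 425 and 336 CPM in shMettl14 A and B, so the libraries matched by letter almost exactly. The log2 ratio was 0.01 in A and −0.01 in B, and the log2 fold change was 0.00022 (SE 0.23, 95% interval −0.60 to 0.60). The step from A to B was −0.32 under shCTR and −0.34 under shMettl14. *Icam1* and *Vcam1* are also endothelial genes, and while both were lower in B under both hairpins, 6 of the 8 endothelial markers were higher in B and 2 were lower. How much of either transcript came from endothelial cells was not tested.

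*Ptgs2* (ENSMUSG00000032487, chromosome 1, 150100031 to 150108227, plus strand) encodes cyclooxygenase 2, the inducible enzyme that turns arachidonic acid into prostaglandin H2. It was read at 435 CPM in shCTR A, 228 in shCTR B, 262 in shMettl14 A and 110 in shMettl14 B, from 49420, 24651, 31159 and 14350 counts. The highest library was shCTR A and the lowest shMettl14 B, while shCTR B lay below shMettl14 A, so the groups overlapped. Under shMettl14 the level was 60.3% of shCTR in A and 48.3% in B, which are log2 ratios of −0.73 and −1.05. *Ptgs2* was the only member lower by more than 0.5 on the log2 scale within both letters, 1 of 10, beside 3.11% of all genes. From A to B the log2 level changed by −0.93 under shCTR and −1.25 under shMettl14, so the letters differed about as much as the hairpins. The log2 fold change was −0.83 (SE 0.52), and its 95% interval of −2.18 to 0.52 runs from 0.221 to 1.43 times the shCTR level. The VSMC marker sum and 5 of its 7 markers were lower under shMettl14 within both letters as well, and their part in the *Ptgs2* difference was not tested. With 1 library left out in turn, the log2 fold change ranged from −1.59 to −0.29.

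The promoter of *Ptgs2* is printed because this gene had the largest difference of the members. It is the RefSeq window on the plus strand of GRCm38.p6, 5′ to 3′.
Ptgs2, chr1:150099781-150100080: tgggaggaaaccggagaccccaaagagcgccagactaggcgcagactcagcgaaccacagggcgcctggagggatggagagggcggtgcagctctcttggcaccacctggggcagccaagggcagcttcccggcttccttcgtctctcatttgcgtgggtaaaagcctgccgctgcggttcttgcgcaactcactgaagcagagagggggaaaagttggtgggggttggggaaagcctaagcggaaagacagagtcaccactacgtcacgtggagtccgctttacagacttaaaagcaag

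**Figure D3:**
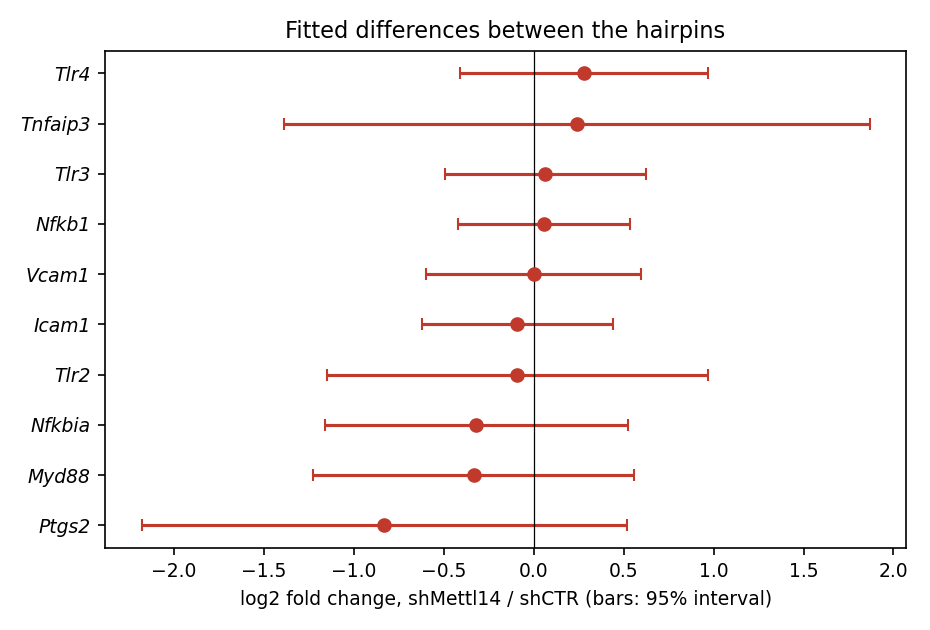
Log2 fold change of shMettl14 over shCTR for each member from the edgeR fit (points), with its 95% interval as a bar. Every interval includes 0, and the widest is that of *Tnfaip3*, from −1.39 to 1.87.

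In the median over the members, the letters differed more than the hairpins. The median absolute log2 ratio between hairpins was 0.15, against a median absolute log2 step between letters of 0.43. Over all genes the same medians were 0.29 and 0.42. For *Tlr2*, *Tlr4*, *Nfkbia*, *Tnfaip3*, *Icam1* and *Vcam1* the step from A to B had the same sign under both hairpins and exceeded both hairpin ratios, 6 of 10 members beside 29.3% of all genes. *Tlr4* and *Tnfaip3* were higher in the B libraries, whereas *Tlr2*, *Nfkbia*, *Icam1* and *Vcam1* were higher in the A libraries. Because the source of the letters is not stated, this step cannot be assigned to a culture, an animal or a preparation.

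**Figure D4:**
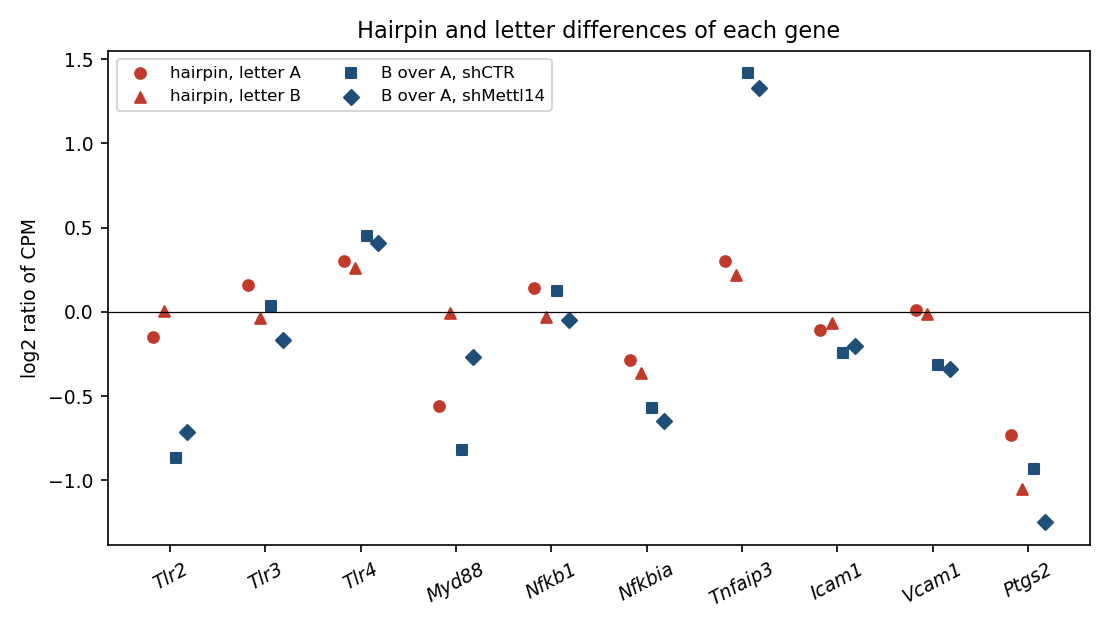
Log2 ratio of CPM for each member gene, with red points for shMettl14 over shCTR in each letter and blue points for letter B over letter A under each hairpin. The blue points of *Tnfaip3* lie at 1.42 and 1.33, far above its red points at 0.30 and 0.22, while for *Ptgs2* all 4 points are below 0.

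The rest of the pathway was read from 9 lists with 129 genes in the table, of which 116 passed the filter on low counts. By edgeR 0 of the 116 had an adjusted p under 0.05 in either direction, DESeq2 called 0, and 1 had an unadjusted p under 0.05, beside 1.67% of all genes. That gene was *Itgb7*, a leukocyte integrin subunit, at 0.555 and 0.639 CPM in shCTR A and B and 0.118 and 0.223 CPM in shMettl14 A and B (log2 fold change −1.80, SE 0.59). These levels are 14 to 69 counts a library. Within both letters 24 of the 116 were higher, 40 were lower and 52 were mixed, beside 30.0% of all genes higher and 27.7% lower, and their median log2 fold change was −0.11.

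Of the 9 other Toll-like receptors, 4 passed the filter, with 1 higher and 1 lower within both letters and a median log2 fold change of −0.27. That median gives no stable direction, since it was 0.86 without shCTR A, 0.34 without shCTR B, 0.12 without shMettl14 A and 0.21 without shMettl14 B. *Tlr6*, a partner of TLR2, was read at 1.86 and 3.68 CPM in shCTR A and B and at 1.19 and 2.62 CPM in shMettl14 A and B. *Tlr5*, the flagellin receptor, lay between 0.889 and 1.65 CPM, and *Tlr13*, which binds bacterial ribosomal RNA, between 0.220 and 1.32 CPM. No value of *Tlr6*, *Tlr5* or *Tlr13* exceeded 3.68 CPM. *Tlr11* and *Tlr12*, named after their values were seen, had 0 counts in all 4 libraries, which allows a level of at most 0.0278 CPM in any of them, for counting error only.

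All 20 co-receptors, adaptors and kinases passed the filter, with 5 higher and 5 lower within both letters and a median of −0.16, which was 0.0054 without shCTR B and −0.0068 without shMettl14 B. *Hsp90b1*, the chaperone that folds TLRs, had a log2 fold change of −0.23 (SE 0.23), *Map3k7*, the kinase TAK1, −0.02 (SE 0.28), and *Irak1*, the kinase that binds MyD88, 0.07 (SE 0.19). In the arm that leads from TLR3 to interferon, 7 of 8 genes passed, with 2 higher and 1 lower within both letters and a median of −0.09, which was 0.14 without shCTR B and −0.25 without shCTR A. *Traf3* stood at 53.1 and 51.3 CPM in shCTR A and B and at 65.0 and 58.1 CPM in shMettl14 A and B, a log2 fold change of 0.24 (SE 0.19). *Ripk1* had a log2 fold change of −0.17 (SE 0.27) and *Azi2* −0.10 (SE 0.21). The gene lower within both letters was *Irf7*, chosen after its values were seen. It was read at 18.7 and 16.7 CPM in shCTR A and B and at 13.9 and 8.02 CPM in shMettl14 A and B. Its log2 fold change was −0.69 (SE 0.34), and −1.14 to −0.35 with a library left out. *Ifnb1*, the interferon that this arm induces, also named after its values were seen, had 0 counts in every library.

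Among 11 NF-κB subunits, IκB kinases and IκB proteins, 2 were higher and 4 lower within both letters, with a median of −0.17, which was −0.34 without shMettl14 A and −0.07 without shMettl14 B. *Rela*, which encodes the p65 partner of p50, was read at 125 and 110 CPM in shCTR A and B and at 111 and 73.5 CPM in shMettl14 A and B, a log2 fold change of −0.35 (SE 0.27). *Ikbkg*, the regulatory subunit of the IκB kinase, had a log2 fold change of 0.26 (SE 0.19), and *Nfkbiz*, a nuclear IκB protein, −0.18 (SE 0.23). For both subunits of the p65 and p50 dimer the edgeR interval included 0.

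The NF-κB brakes and ubiquitin ligases, the list to which *Tnfaip3* is closest in function, held 13 genes of 16 that were lower within both letters, 1 that was higher and 2 that were mixed, beside 27.7% of all genes lower within both. These counts are in CPM and depend on the scaling. In TPM, *Tnip1*, *Otulin*, *Rbck1*, *Sharpin* and *Zc3h12a* were lower within both letters, whereas *Itch*, *Birc2*, *Cyld* and *Tnip3* were higher within both. The rest were mixed, and those named here except *Itch* were chosen after their values were seen. In 5 of 16 both shMettl14 values lay under both shCTR values in CPM, beside 13.3% of all genes, and 0 of 16 passed the edgeR test. Their median log2 fold change was −0.18, and −0.07 with library totals only, where the median of all genes is 0.12. The VSMC marker sum and 5 of its 7 markers were lower under shMettl14 within both letters as well. Of the 8 endothelial markers, 3 were lower within both letters and 0 were higher. The part of either marker list in the difference of the brakes was not tested. *Rnf11*, a partner of A20, was read at 157 and 151 CPM in shCTR A and B and at 125 and 137 CPM in shMettl14 A and B. *Tax1bp1*, another A20 partner, had a log2 fold change of −0.12 (SE 0.28), and *Itch*, a ubiquitin ligase, 0.13 (SE 0.28). Chosen after their values were seen, *Sharpin*, *Rbck1* and *Rnf31*, which form the linear ubiquitin ligase, had log2 fold changes of −0.34 (SE 0.21), −0.41 (SE 0.34) and −0.19 (SE 0.25). That of *Otulin*, which removes linear ubiquitin, was −0.46 (SE 0.20). With a library left out, the values ranged from −0.45 to −0.22 for *Sharpin* and −0.81 to −0.09 for *Rbck1*. For *Rnf31* they ranged from −0.37 to 0.0022 and for *Otulin* from −0.49 to −0.42.

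Of 9 TNF and interleukin-1 receptors and ligands, 7 passed, with 2 higher and 1 lower within both letters and a median of 0.00091, which lay between −0.28 without shMettl14 A and 0.37 without shCTR A. *Tnfrsf1a*, the main TNF receptor of stromal cells, was read at 209 and 131 CPM in shCTR A and B and at 200 and 140 CPM in shMettl14 A and B, again apart by letter. *Il1r1* stood at 20.7 and 40.8 CPM in shCTR and at 22.0 and 39.5 CPM in shMettl14, and *Tnfrsf1b* lay between 17.9 and 24.9 CPM. Of the ligands, named after their values were seen, *Tnf* had at most 1 count in a library and *Il1b* at most 5. *Il1a*, the gene of interleukin 1α, had 3 and 0 counts in shCTR A and B and 16 and 20 in shMettl14 A and B, so its groups did not overlap at these low counts, and the 95% interval of its log2 fold change ran from −0.24 to 6.90.

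Of 21 other NF-κB target genes, 18 passed, with 6 higher and 7 lower within both letters and a median of −0.07, which was 0.09 without shCTR A, −0.29 without shMettl14 A, −0.19 by DESeq2 and −0.16 with no filter beyond 1 count. *Csf1*, the macrophage growth factor, was the target gene with the most reads, at 1483 and 1181 CPM in shCTR A and B and 1552 and 1266 CPM in shMettl14 A and B. *Ccl2*, a monocyte chemokine, stood at 159 and 82.4 CPM in shCTR and at 156 and 94.9 CPM in shMettl14, and *Plau*, the urokinase gene, lay between 71.4 and 106 CPM. *Csf1* and *Ccl2* were higher in A than in B under both hairpins, as were *Tlr2*, *Myd88*, *Nfkbia*, *Icam1*, *Vcam1* and *Ptgs2*. *Plau* was higher in A under shCTR and higher in B under shMettl14. Higher in B under both hairpins were *Tlr4*, *Tnfaip3* and the target gene *C3*, named after its values were seen.

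Of 19 other adhesion molecules and counter-receptors, 18 passed, with 3 higher and 4 lower within both letters and a median of −0.02, which was −0.12 without shCTR A, −0.0013 without shCTR B, −0.04 without shMettl14 A and −0.36 without shMettl14 B. The endothelial selectin genes were read in every library, *Selp* between 327 and 432 CPM and *Sele* between 48.6 and 75.8 CPM, which adds to the endothelial markers given above. *Pecam1* had a log2 fold change of −0.33 (SE 0.31) and *Itgb1*, the β1 chain that pairs with α4 in the VCAM-1 receptor, −0.19 (SE 0.23). *Itga4*, the α4 chain, stood at 6.51 and 9.25 CPM in the A libraries of shCTR and shMettl14 and at 60.4 and 63.4 CPM in the B libraries, a log2 step between letters of 3.21 under shCTR and 2.78 under shMettl14.

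Of 16 prostaglandin pathway genes, 15 passed, with 2 higher and 4 lower within both letters and a median of −0.11, which was 0.17 without shCTR A, −0.36 without shCTR B, −0.20 without shMettl14 A and −0.06 without shMettl14 B. *Pla2g4a*, the phospholipase that releases arachidonic acid upstream of cyclooxygenase, was read at 130 and 63.3 CPM in shCTR A and B and at 92.5 and 46.0 CPM in shMettl14 A and B. Like *Ptgs2*, it was lower under shMettl14 within both letters and lower in B than in A, with a log2 fold change of −0.48 (SE 0.49). *Ptgs1*, the constitutive cyclooxygenase, differed on the log2 scale by −0.22 in A and by 0.03 in B, and *Ptgis*, the prostacyclin synthase, had a log2 fold change of −0.32 (SE 0.29). *Ptges3*, a prostaglandin E synthase and co-chaperone, had a log2 fold change of −0.04 (SE 0.23).

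**Figure D5:**
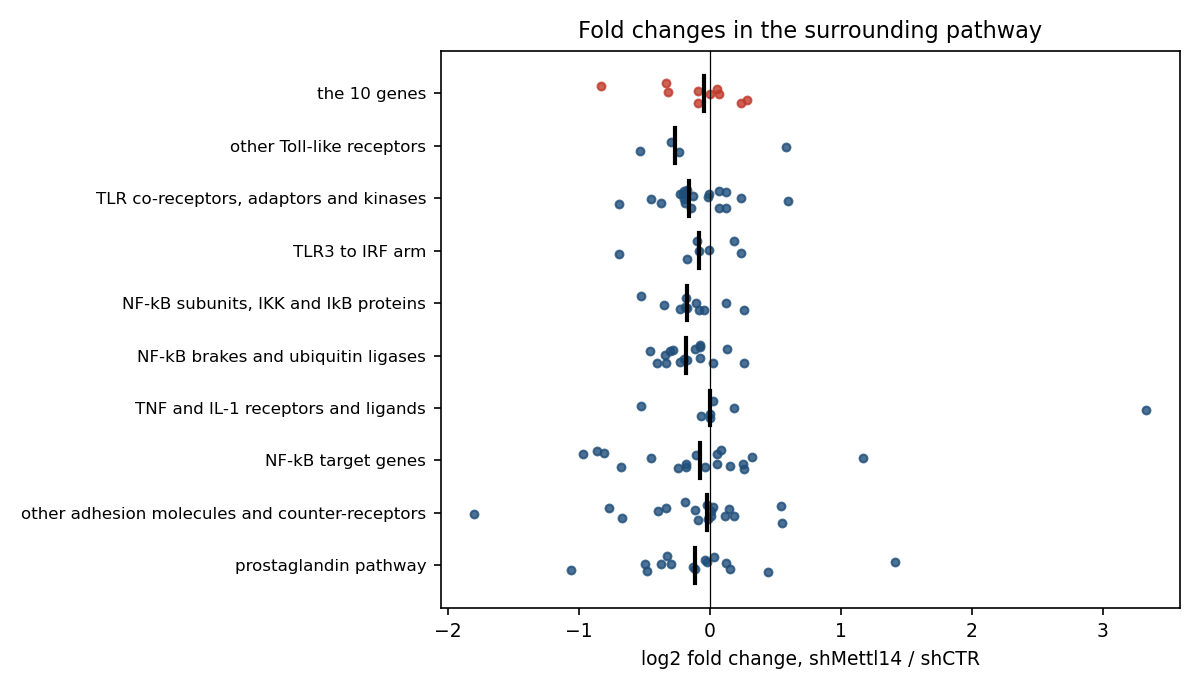
Log2 fold change of shMettl14 over shCTR for the tested genes of the members and of the 9 pathway lists, with 1 point for each gene and a bar at the median of each row. Row medians lie between −0.27 and 0.00091, beside 0.01 over all genes, several of them change sign with 1 library left out, and the point at the far right is *Il1a*, with at most 20 counts in a library.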

How the data were processed

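Poly-A RNA libraries of shCTR and shMettl14 VSMCs (2 each) were used. The authors aligned the reads with STAR to mm10 (GRCm38.p6, Ensembl version 86) and deposited raw read counts per gene from featureCounts; the libraries were strand-specific, but tool versions, the strand setting of the counting and its handling of multiply mapped reads are not given in the sources used here. Genes with low counts were removed with filterByExpr, the counts were scaled by TMM, and shMettl14 was compared with shCTR by edgeR 4.0.16 (R 4.3.3, limma 3.58.1) with a robust quasi-likelihood test over 18916 genes, Benjamini-Hochberg adjusted, at 0.05. Ratios within letters are log2 CPM with a prior count of 2. TPM used merged exon lengths of GENCODE M21, matched by symbol for 46384 of 48587 genes holding 97.97% of counts. DESeq2 1.42.0 was an alternative, and library totals only was added after seeing the data. The script was tested on simulated data without a step between letters and with less spread than these libraries showed. That test does not show what size of difference could be called here. The members and lists were chosen with earlier results of these data known. Besides members and *Mettl14*, each list's 3 tested genes of highest CPM, any gene past a threshold, and *Cd14*, *Ly96*, *Ptgs1*, *Sele* and *Itga4* could be named, and genes outside this rule are marked as chosen after their values were seen. With 3 counts as the floor, the limit was 0.0231 to 0.0278 CPM. Marker lists were also read: 6 adventitial fibroblast genes summed to between 668 and 797 CPM, with 3 of the 6 under 1 CPM in every library. *Cd34* carried much of that sum, which without it was 253, 206, 256 and 291 CPM in shCTR A, shCTR B, shMettl14 A and shMettl14 B. Most of the rest was *Ly6a*, at 195 to 282 CPM.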

Additional observations from a re-analysis of the deposited data

How the results depend on the processing

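In 0 of 10 members did a call appear under any other scaling, filter, test or left-out library, and none of the 9 lists gained a call. The count over all genes was 0 and became 5 with DESeq2, 9 with the replicate block and 0 to 1 with a library left out, the 1 being without shCTR B. *Mettl14* stood at −2.08 with an adjusted p that rounds to 1 by edgeR, at −2.09 (adjusted p = 3.0e-07) with DESeq2 and at −2.08 (edgeR adjusted p = 0.0039) with the letter as a block, and between −2.15 and −2.01 with a library left out. The letters give only 2 pairs, and no source ties them to common cultures, so the design does not pair the libraries. As a hint from the data, deviations of libraries with the same letter correlated at 0.578 across genes, and the common dispersion was 0.178 without and 0.0418 with the block. With the letter as a block, *Ptgs2* had a log2 fold change of −0.89 (SE 0.16, edgeR unadjusted p = 2.4e-04, adjusted p = 0.12). It was the 1 member of 10 under an unadjusted p of 0.05 in that fit, beside 10.3% of all genes. With the block, 0 of 10 members were called, beside 0.0476% of all genes. Over the other fits the lowest adjusted p of a member was 0.12, and with a library left out 0.81. *Vcam1*, at 0.00022, was −0.0088 with RLE factors, −0.0057 with DESeq2 and −0.0012 with the block. With library totals only, *Tlr2* was 0.0098 and *Icam1* 0.017, where the median of all genes is 0.12, so both stayed below it. With a library left out, log2 fold changes ranged from −0.49 to 0.41 for *Tlr2*, −0.018 to 0.15 for *Tlr3*, −0.69 to 0.14 for *Myd88*, −0.57 to 1.11 for *Tnfaip3*, −0.21 to 0.042 for *Icam1* and −0.18 to 0.17 for *Vcam1*, and, with the sign kept, 0.065 to 0.52 for *Tlr4*, 0.0015 to 0.12 for *Nfkb1*, −0.68 to −0.0013 for *Nfkbia* and −1.59 to −0.29 for *Ptgs2*. *Nfkb1* and *Nfkbia* were nearest to 0 without shCTR A. With a library left out, the list medians ranged from −0.34 to −0.07 for the NF-κB subunits, −0.24 to −0.14 for the brakes and −0.36 to −0.0013 for the adhesion molecules, while the members and the other 6 lists took both signs or, for the other Toll-like receptors (0.025 with the block), changed sign each time. The causes of these changes were not tested. With 4 exact words of 10 bases that the κB consensus covers in its place, 1 of 7 members held a match instead of 4. Of all windows, 0.444% held such a word. The lowest count of a member was 1441, so counting error was at most 2.63%.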

Other observations

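Several inflammatory genes of the lists differed by letter more than by hairpin, and those named here were chosen after their values were seen. *Ptges*, the inducible prostaglandin E synthase that works downstream of cyclooxygenase 2, was read at 23.0 CPM in shCTR A and 24.8 in shMettl14 A, against 0.926 in shCTR B and 1.21 in shMettl14 B. *Il6*, which encodes interleukin 6, stood at 41.2 and 42.2 CPM in the A libraries and at 8.84 and 9.62 CPM in the B libraries. *Ptx3*, a secreted pattern recognition protein, had 59.2 and 61.0 CPM in A and 18.4 and 25.02 CPM in B. *Bcl3*, an IκB family member, had 19.0 and 17.1 CPM in A and 4.81 and 5.41 CPM in B. In each of these genes the shCTR and shMettl14 libraries of a letter were nearer to each other than the letters were, and what the letters stand for is not stated. These genes were all higher in A, but other list genes went the other way. *Il1r1* stood at 20.7 and 22.0 CPM in A and at 40.8 and 39.5 CPM in B, and *Itga4*, given above, was also higher in B. Over the 116 tested genes of the lists, 48 had a step between letters with the same sign under both hairpins and larger than both hairpin ratios, or 41.4%, beside 29.3% of all genes tested.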
